A study of Mus musculus with 6 samples.

Results

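Cholinergic and motor neuron genes of the mouse brainstem were followed in 6 RNA-Seq libraries. The set held 9 genes, *Chat*, *Slc18a3*, *Slc5a7*, *Ache*, *Isl1*, *Mnx1*, *Prph*, *Calca* and *Calcb*, and it was chosen by gene name in the deposited assembly, whose table holds 34632 loci. Each name lay on 1 locus. The libraries came from whole brainstems at postnatal day (P) 21, and 3 were labelled *Hoxa5* control (Hoxa5 flox/flox;CMV-CreERT2-/-) and 3 *Hoxa5* cKO (Hoxa5 flox/flox;CMV-CreERT2+/-). Both genotypes were homozygous for the floxed allele, both received tamoxifen from P1 to P4, and each library was made from a pool of 3 brainstems, so that a p-value measures the spread between pools. The CMV promoter that drives the inducible Cre is a broadly active one, and the recombination was therefore not directed to cholinergic or motor neurons. The question addressed was whether the transcripts of these neurons differed between the libraries labelled cKO and those labelled control.

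Cholinergic neurons make acetylcholine from choline and acetyl-CoA with choline acetyltransferase (*Chat*), load it into vesicles with the vesicular transporter (*Slc18a3*), and take choline back up with the high-affinity choline transporter (*Slc5a7*) after acetylcholinesterase (*Ache*) has cleaved the transmitter in the synaptic cleft. In the brainstem, the motor neurons of the cranial nerve nuclei are cholinergic, as are neurons of the pedunculopontine and laterodorsal tegmental nuclei. *Isl1* and *Mnx1* encode homeodomain transcription factors of developing motor neurons. *Prph* encodes peripherin, an intermediate filament of neurons with axons in the periphery, and *Calca* and *Calcb* encode the precursors of the α and β forms of calcitonin gene-related peptide (CGRP), which motor neurons and sensory neurons make.

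*Chat* and *Slc18a3* form 1 cholinergic gene locus on the minus strand of chromosome 14 (mm10, which is GRCm38). The assembled *Chat* locus ran from 32407364 to 32465909 with 3 transcripts, and *Slc18a3*, a single exon from 32462437 to 32464850, lay within it, 1059 bases from the start of *Chat* in the direction of transcription. The exons of the pair shared 0 bases, so that fragments of their spliced transcripts could be counted apart. Unspliced *Chat* RNA that covers the *Slc18a3* exon, on the same strand, would be counted as *Slc18a3*. Its part in the counts was not tested.

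**Figure D1:**
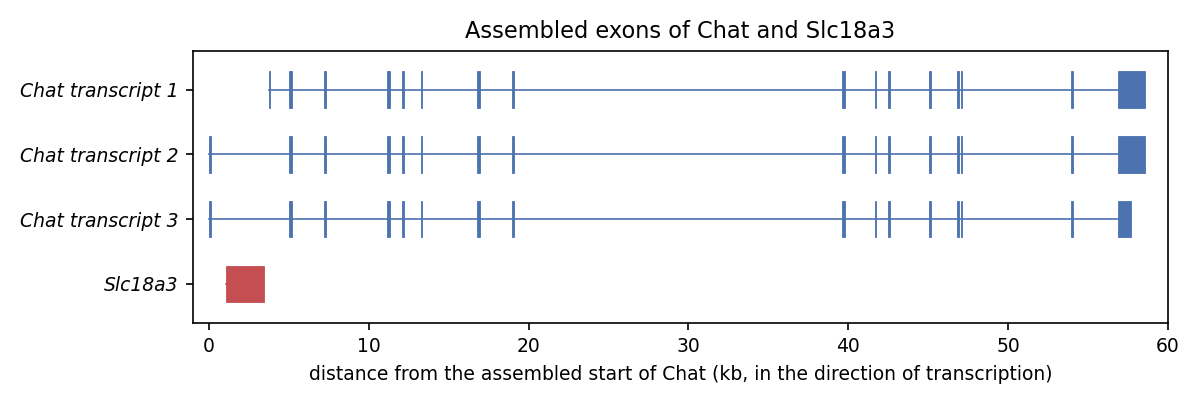
Assembled exons (boxes) of the 3 *Chat* transcripts and of *Slc18a3* against the distance from the assembled start of *Chat* (x axis, kb, in the direction of transcription). The single exon of *Slc18a3* starts 1059 bases from the start of *Chat* and overlaps none of its exons.

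Upstream sequences are given for *Chat*, *Slc18a3* and *Slc5a7*, which act in 1 pathway, for *Calca*, the member nearest to *Chat* in its profile over the libraries, and for *Isl1*, the member with the largest fold change. They were taken from RefSeq (GRCm38.p6), which held a promoter entry for 8 of the 9 members, and they run 5′ to 3′ toward the start site over up to 250 bases, without bases that GENCODE places in an exon of the same gene. The capitals mark TAAT, the core motif of many homeodomain proteins, among them the ISL1, MNX1 and HOX proteins, searched on both strands (TAAT or ATTA).
Chat (chr14:32465990-32466159, minus strand): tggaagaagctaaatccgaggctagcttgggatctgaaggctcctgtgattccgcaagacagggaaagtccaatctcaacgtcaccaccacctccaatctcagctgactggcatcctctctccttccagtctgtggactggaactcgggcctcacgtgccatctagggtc
Slc18a3 (chr14:32464851-32465100, minus strand): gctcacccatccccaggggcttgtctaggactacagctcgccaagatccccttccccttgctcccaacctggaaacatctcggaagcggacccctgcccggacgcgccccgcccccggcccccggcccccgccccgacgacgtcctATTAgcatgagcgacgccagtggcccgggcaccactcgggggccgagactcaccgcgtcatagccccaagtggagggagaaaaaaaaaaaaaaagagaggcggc
Slc5a7 (chr17:54299035-54299284, minus strand): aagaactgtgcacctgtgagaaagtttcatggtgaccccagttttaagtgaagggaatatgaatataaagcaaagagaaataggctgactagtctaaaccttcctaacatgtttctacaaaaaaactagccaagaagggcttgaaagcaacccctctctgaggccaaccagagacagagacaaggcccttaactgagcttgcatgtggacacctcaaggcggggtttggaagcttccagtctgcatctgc
Isl1 (chr13:116309690-116309938, minus strand): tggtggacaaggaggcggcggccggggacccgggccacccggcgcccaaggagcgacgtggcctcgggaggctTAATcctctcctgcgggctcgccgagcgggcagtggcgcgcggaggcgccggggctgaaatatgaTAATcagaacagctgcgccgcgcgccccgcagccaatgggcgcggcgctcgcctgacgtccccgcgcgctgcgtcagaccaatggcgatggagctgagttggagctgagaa
Calca (chr7:114636358-114636607, minus strand): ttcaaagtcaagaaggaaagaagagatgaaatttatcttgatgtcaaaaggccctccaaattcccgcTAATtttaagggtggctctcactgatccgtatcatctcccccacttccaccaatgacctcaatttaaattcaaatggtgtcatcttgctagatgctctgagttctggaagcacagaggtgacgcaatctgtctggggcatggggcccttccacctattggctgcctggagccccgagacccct
A TAAT core was found in 4 of the 8 upstream regions of 250 bases, 2 times in that of *Isl1* and 1 time each in those of *Slc18a3*, *Mnx1* and *Calca*, and in 54.9% of all 32851 promoter entries. CCAAT (or ATTGG on the other strand) was present in 4 of the 8 and in 33.8% of all, and TGACG (or CGTCA), which is part of the cyclic AMP response element, in 4 of the 8 and in 17.8% of all. The regions of *Slc5a7*, *Ache* and *Prph* held none of the 3 motifs. The motifs were counted separately, and their matches may overlap. The noncoding antisense gene *Gm2990* begins inside the window of *Slc18a3* on the other strand. The window of *Calca* is upstream of the GENCODE gene but lies inside the assembled locus, which reaches to 114651771.

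The CGRP-coding exons of *Calca* and *Calcb* are shown because their likeness bears on how well the counts of the pair can be told apart. Both are exon 4 of their GENCODE transcript on chromosome 7, and the capitals mark the longest stretch that they share.
Calca (chr7:114632443-114632599, minus strand): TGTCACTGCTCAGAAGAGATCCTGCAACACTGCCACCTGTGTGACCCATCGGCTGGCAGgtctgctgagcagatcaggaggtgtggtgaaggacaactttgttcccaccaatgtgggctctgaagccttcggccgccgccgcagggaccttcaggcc
Calcb (chr7:114721975-114722134, plus strand): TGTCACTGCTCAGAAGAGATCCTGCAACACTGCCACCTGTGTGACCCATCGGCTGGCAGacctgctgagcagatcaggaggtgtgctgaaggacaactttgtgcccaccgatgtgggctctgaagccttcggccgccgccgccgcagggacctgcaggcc
Of the 157 aligned bases, 151 (96.2%) were identical, and the shared stretch was 59 bases long. Over the whole coding sequence, 325 of 381 aligned bases (85.3%) were identical. How the counting treated fragments that match both genes is not given in the sources used here, and the values of *Calca* and *Calcb* are uncertain to that extent.

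The libraries held 12034613 to 13202707 fragments. Levels within a gene are given as CPM, fragments scaled to the size of the library with TMM factors, and levels are compared between genes as the deposited FPKM, which also divides by length. *Hoxa5* went against the labels of 2 libraries. Its locus, which the assembly joins with *Hoxa6* and 2700086A05Rik, counted 202, 337 and 77 fragments across control replicates 1 to 3 and 279, 57 and 63 across cKO replicates 1 to 3, so that the library labelled control replicate 3 was low and the library labelled cKO replicate 1 was high. Fragments of 4 Y-linked genes numbered 3 in cKO replicate 1 and 1069 to 1734 in the other 5 libraries. Genotypes are given as labelled, and the fold changes are also given without both of those libraries. The replicate numbers are names from the deposited table and are not tied to the numbered pools.

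The tissue label was checked against marker genes. Glycine transporter *Slc6a5*, a marker of glycinergic neurons of the hindbrain and spinal cord, had 2523 to 3427 fragments in each library, and serotonergic *Tph2* had 498 to 690. The forebrain genes *Emx1*, *Emx2* and *Tbr1* had 0 to 9 fragments in each library, while *Neurod6* and *Lhx2* of the same list had 32 to 44 and 23 to 39. Most markers of sensory ganglia were near 0 as well, with 0 to 1 fragments for *Scn10a*, 0 for *Mrgprd*, 0 to 4 for *Trpv1* and 0 to 1 for *Prdm12*.

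The 9 members spanned a wide range of levels. Averaged over the 6 libraries, *Ache* had the highest level, 73.6 ± 1.94 FPKM (SD, n = 6), at the percentile 96.3 of the loci with a gene name. It was followed by *Prph* with 14.8 ± 2.07 FPKM, *Slc5a7* with 11.0 ± 1.59 FPKM, *Slc18a3* with 9.27 ± 1.28 FPKM and *Calca* with 8.89 ± 1.70 FPKM. *Chat* had 4.88 ± 0.746 FPKM, close to the middle of the named loci (percentile 52.2). The lowest were *Calcb* with 1.92 ± 0.718 FPKM, *Isl1* with 0.616 ± 0.267 FPKM and *Mnx1* with 0.163 ± 0.126 FPKM, the last at percentile 16.1. *Slc5a7*, *Slc18a3* and *Calca* overlapped in their ranges over the libraries, and the range of *Prph* (12.7 to 17.8 FPKM) overlapped that of *Slc5a7* (from 9.36 FPKM upward). Every other pair of neighbours in this order was separated in all 6 libraries. The locus counted as *Ache* also holds the 996 exonic bases of *Ufsp1*, a protease gene that the assembly joined with it, and 234 of its exon bases overlap *Srrt* on the other strand, so that its level is uncertain to that extent. The library kit keeps the strand, and the strand setting of the counting is not given in the sources used here.

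No member passed the test between genotypes. Of the 9 genes, 8 passed the filter on low counts, and 0 of these 8 were called at an adjusted p under 0.05 by edgeR's quasi-likelihood test with Benjamini-Hochberg adjustment over 21854 loci, beside 0.531% of all loci tested (110 with lower and 6 with higher levels under the cKO label). At an unadjusted p under 0.05 from edgeR there was 1 of the 8 members, *Isl1*, beside 1516 of all 21854 loci tested. The counts of the gene lists below at that threshold stand beside the same share. DESeq2 also called 0 members, with 0 at an unadjusted p under 0.05. The 8 fold changes were all above 0, with a median log2 fold change of 0.14, while the median over all loci tested was 0.0034 and 51.4% of them were above 0. *Chat*, *Slc18a3*, *Slc5a7*, *Calca* and *Prph* vary together over the libraries, as the profiles by library show, so that the 8 signs are not 8 separate observations. Every library labelled cKO was above every control for 2 of the 9 members, *Ache* and *Isl1*, and the groups overlapped for the other 7. Among all loci tested, 5.61% were placed in this way.

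**Figure D2:**
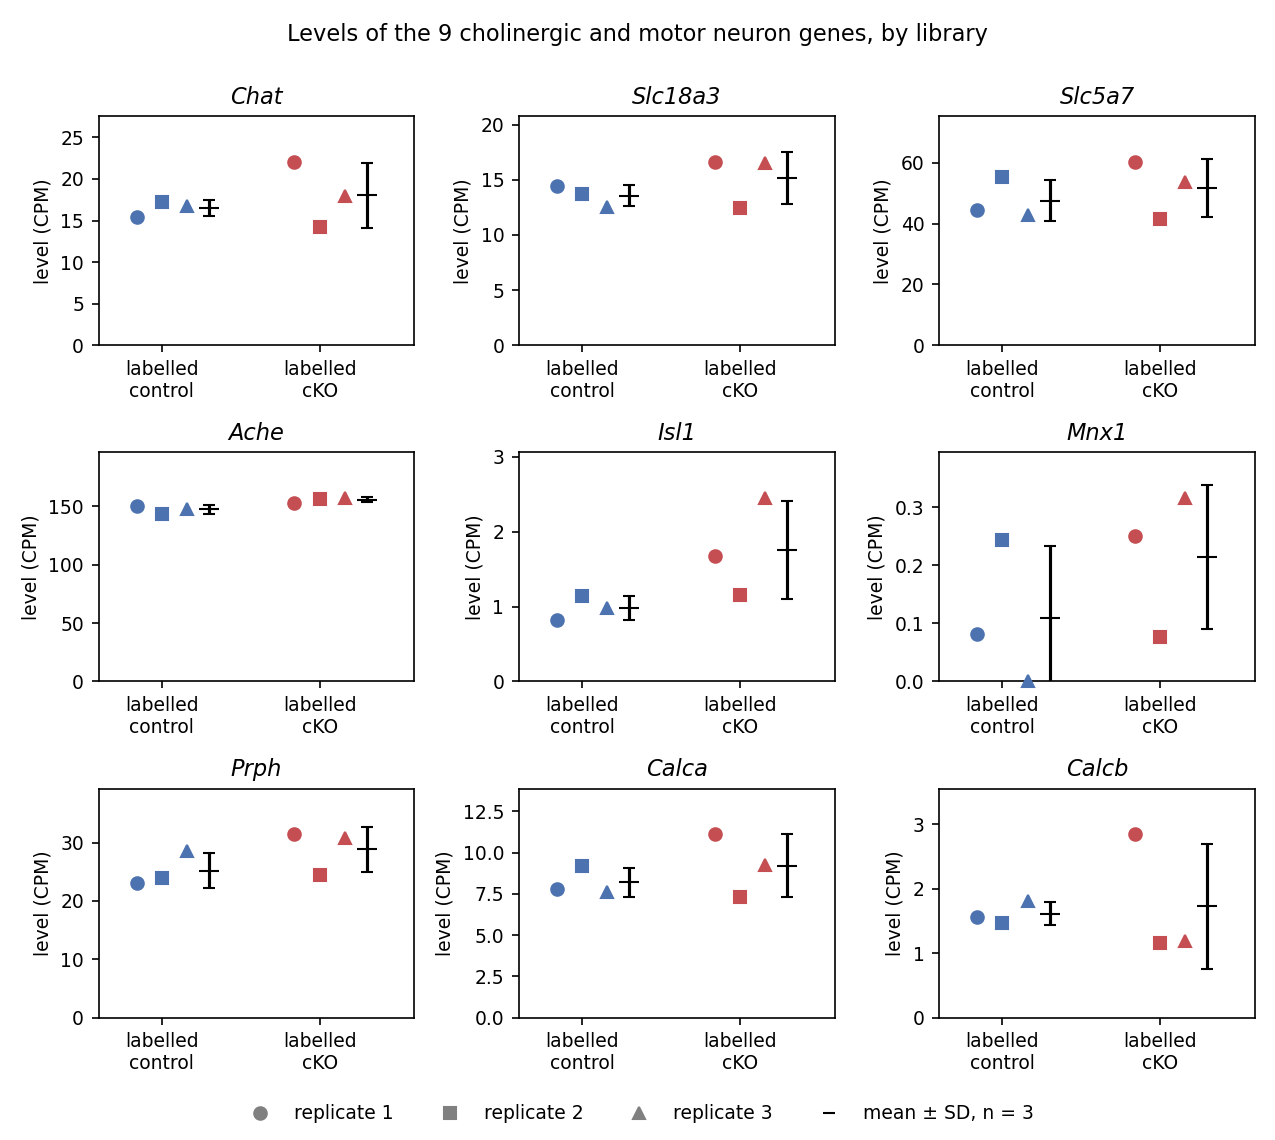
Level of each member (y axis, CPM, from 0) in the 3 libraries labelled control and the 3 labelled cKO (x axis), with 1 point per library, its shape giving the replicate number, and the mean ± SD of each group (n = 3) beside the points. For *Chat*, *Slc18a3*, *Slc5a7*, *Prph*, *Calca* and *Calcb*, cKO replicate 1 is the highest of the 6 points.

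*Chat*, the enzyme that makes acetylcholine, had 188, 212 and 222 fragments under the control label (replicates 1 to 3, in this order throughout) and 264, 185 and 227 under the cKO label. The libraries labelled cKO held both the highest level, in replicate 1, and the lowest, 14.2 CPM in replicate 2, and the controls lay between them at 15.4 to 17.3 CPM. The libraries labelled cKO averaged 18.1 ± 3.92 CPM and the controls 16.5 ± 0.967 CPM (SD, n = 3 per label). The log2 fold change from edgeR came to 0.13 (95% interval -0.14 to 0.39, standard error 0.13, adjusted p = 0.914). In fold terms the interval ran from 0.907 to 1.31, and a fall or a rise within it was not detectable with these pools. The coefficient of variation was 5.87% among the controls, where counting error alone gives 6.94%, and 21.7% among the libraries labelled cKO, where counting error gives 6.66%.

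*Slc18a3*, which fills synaptic vesicles with acetylcholine, had 176, 168 and 166 fragments under the control label and 199, 162 and 209 under the cKO label. Here cKO replicates 1 and 3 were both above the controls and cKO replicate 2 was below them. The mean was 15.2 ± 2.38 CPM against 13.5 ± 0.945 CPM in the controls, a log2 fold change of 0.16 (95% interval -0.09 to 0.41, standard error 0.12, adjusted p = 0.880 from edgeR).

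*Slc5a7*, the choline transporter, on the minus strand of chromosome 17 from 54273448 to 54299034, had 542, 680 and 569 fragments under the control label and 722, 540 and 679 under the cKO label. High levels (53.6 to 60.3 CPM) were found for control replicate 2, cKO replicate 1 and cKO replicate 3, and low levels (41.4 to 44.4 CPM) for the other 3 libraries, which mixes the genotypes. The log2 fold change was 0.12 (95% interval -0.11 to 0.35, standard error 0.11, adjusted p = 0.906 from edgeR).

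*Ache*, which ends the signal by breaking acetylcholine down, lay on the plus strand of chromosome 5 from 137288224 to 137295929 and had 1841, 1762 and 1959 fragments under the control label and 1835, 2043 and 1989 under the cKO label. On the CPM scale the groups did not overlap, with 144 to 151 CPM in the controls and 153 to 157 CPM in the libraries labelled cKO. The difference was small, a log2 fold change of 0.08 (95% interval -0.02 to 0.18, standard error 0.05, adjusted p = 0.832 from edgeR), or 1.06-fold. On the deposited FPKM scale the groups did overlap, with 70.1 to 73.5 FPKM in the controls and 73.5 to 75.8 FPKM in the libraries labelled cKO. *Ache* varied least of the members, by 3.46% over the 6 libraries.

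*Isl1*, the LIM-homeodomain factor of motor neurons, had the largest fold change and few fragments. Its locus lay on the minus strand of chromosome 13 from 116298270 to 116309688. It had 10, 14 and 13 fragments under the control label and 20, 15 and 31 under the cKO label. The nearest libraries of the groups, control replicate 2 with 1.14 CPM and cKO replicate 2 with 1.15 CPM, nearly met, and cKO replicate 3 was the highest with 2.45 CPM. The mean was 1.76 ± 0.653 CPM against 0.981 ± 0.161 CPM in the controls, a log2 fold change of 0.83 (95% interval 0.11 to 1.55, standard error 0.34, unadjusted p = 0.0256 and adjusted p = 0.620 from edgeR, and 0.380 to 1 over the alternatives in which it was tested). Counting error alone gives a coefficient of variation of 24.1% for a library at this depth. *Isl1* is not restricted to motor neurons, being made by sensory and other neurons as well. Leaving out cKO replicate 3 lowered the log2 fold change to 0.51 (adjusted p = 0.870 from edgeR). With the mean of granule neuron and Purkinje cell genes as a covariate it was -0.45. That mean separates the genotypes and cannot be told apart from them.

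*Mnx1*, a homeodomain factor of embryonic spinal motor neurons, on the minus strand of chromosome 5 from 29473823 to 29478470, had 1, 3 and 0 fragments under the control label and 3, 1 and 4 under the cKO label. It did not pass edgeR's filter on low counts. Fits without that filter also gave no call for it. A count of 0 in control replicate 3 allows up to 0.226 CPM, counting error only, and 5 of the 6 libraries were at or under a floor of 3 counts, so that no fold change is given.

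*Prph*, the filament of neurons with peripheral axons, on the plus strand of chromosome 15 from 99055174 to 99058978, had 282, 294 and 378 fragments under the control label and 376, 318 and 389 under the cKO label. Control replicate 3 (28.6 CPM) lay above cKO replicate 2 (24.4 CPM), and cKO replicates 1 and 3 lay above all controls. The mean was 28.8 ± 3.85 CPM against 25.2 ± 2.94 CPM in the controls, a log2 fold change of 0.19 (95% interval -0.03 to 0.40, standard error 0.10, unadjusted p = 0.0809 and adjusted p = 0.791 from edgeR).

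*Calca* had 95, 113 and 101 fragments under the control label and 133, 95 and 117 under the cKO label. Its locus, on the minus strand of chromosome 7 from 114631343 to 114651771, held 4 assembled transcripts, 3 with the CGRP exon and 1 with the calcitonin exon, and 1 count covers them all. The level ranged from 7.29 CPM in cKO replicate 2 to 11.1 CPM in cKO replicate 1, with the controls inside that range. The log2 fold change was 0.16 (95% interval -0.15 to 0.48, standard error 0.15, adjusted p = 0.905 from edgeR).

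*Calcb* lay on the plus strand of chromosome 7 (114718643 to 114723365). The gap from the GENCODE span of *Calca*, which ends at 114636357, is 82285 bases. The assembled locus of *Calca* reaches nearer, to 114651771. *Calcb* had 19, 18 and 24 fragments under the control label and 34, 15 and 15 under the cKO label. The libraries labelled cKO held the highest level, 2.84 CPM in replicate 1, and the lowest ones, 1.15 and 1.18 CPM. The log2 fold change was 0.08 (95% interval -0.64 to 0.80, standard error 0.34, adjusted p = 0.986 from edgeR). Its interval allows folds from 0.641 to 1.74.

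**Figure D3:**
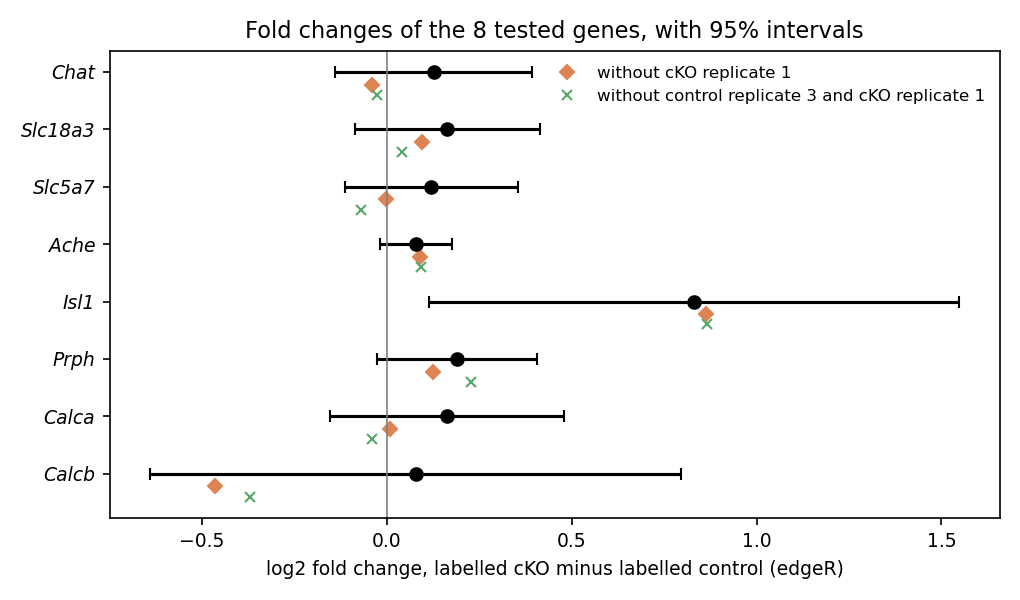
log2 fold change of the 8 tested members (x axis, labelled cKO minus labelled control, from edgeR) with the 95% interval as a bar, and below each the value without cKO replicate 1 (diamonds) and without control replicate 3 and cKO replicate 1 (crosses). The interval of *Isl1* (0.11 to 1.55) is the only one that leaves out 0, and *Chat*, *Slc5a7* and *Calcb* lie below 0 once cKO replicate 1 is left out.

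The direction of several fold changes rested on cKO replicate 1. Without this library the values were -0.04 for *Chat*, -0.0022 for *Slc5a7* and -0.47 for *Calcb*, and 0.0097 for *Calca*. Without it and control replicate 3, the libraries in which *Hoxa5* went against the label, the values were -0.03 for *Chat*, -0.07 for *Slc5a7*, -0.04 for *Calca* and -0.37 for *Calcb*. *Ache*, *Isl1*, *Prph* and *Slc18a3* stayed above 0 in both settings. They were at 0.09, 0.86, 0.12 and 0.09 without cKO replicate 1 and at 0.09, 0.86, 0.23 and 0.04 without both libraries. No member was called in either setting by edgeR. The part of the low Y-linked count of cKO replicate 1 in these values was not tested.

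Most members were high and low in the same libraries. cKO replicate 1 was the highest library for 6 of the 9 members and cKO replicate 3 for the other 3, while cKO replicate 2 was the lowest for 5. Among the 18672 loci with at least as many fragments as *Isl1*, cKO replicate 1 was the highest library for 20.7%, cKO replicate 3 for 19.2%, and cKO replicate 2 the lowest for 14.6%. The median deviation of the 8 tested members from their own means was -0.15, -0.07 and -0.10 on the log2 CPM scale in control replicates 1 to 3. In cKO replicates 1 to 3 it was 0.32, -0.22 and 0.11. All 8 were above their own mean in cKO replicate 1, 7 in cKO replicate 3 and 1 in cKO replicate 2, so that the libraries labelled cKO lay on both sides of the controls.

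**Figure D4:**
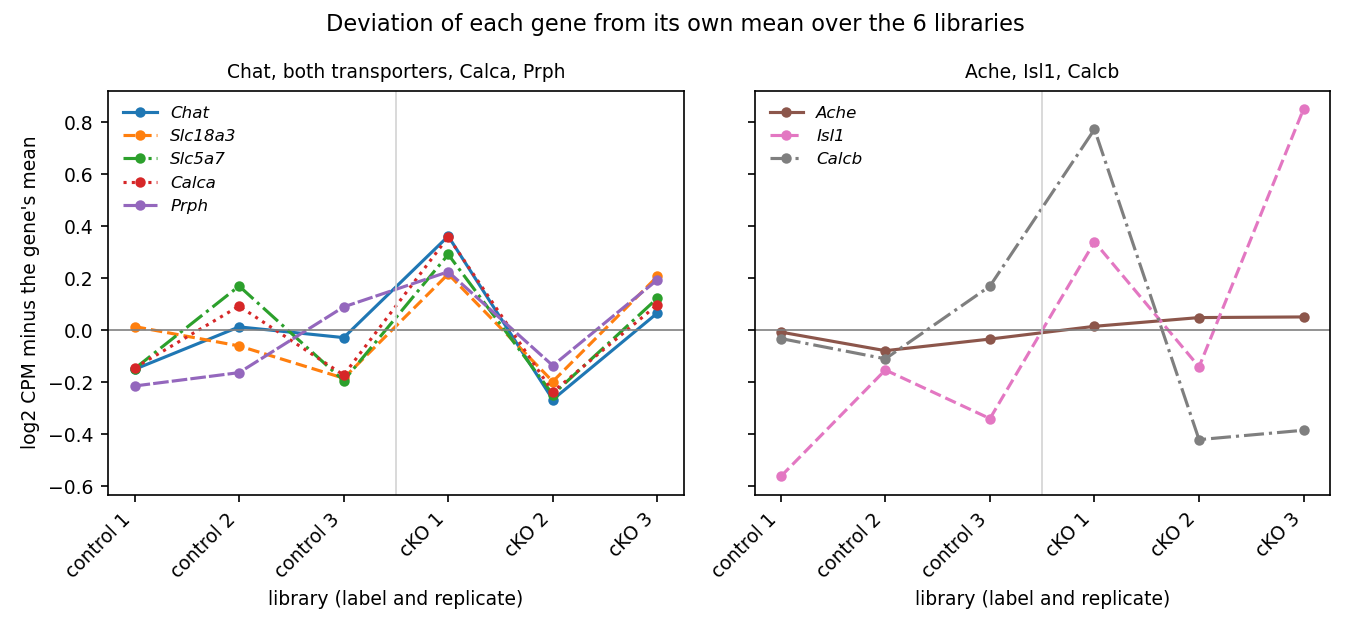
Deviation of log2 CPM from the gene's own mean over the 6 libraries (y axis) in each library (x axis), 1 line per gene, with *Chat*, *Slc18a3*, *Slc5a7*, *Calca* and *Prph* on the left and *Ache*, *Isl1* and *Calcb* on the right. On the left all 5 genes are above 0 in cKO replicates 1 and 3 and below 0 in cKO replicate 2.

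The likeness of these profiles was measured as the root mean square distance between the deviations of log2 CPM over the 6 libraries, as a description. *Calca* was nearest to *Chat* among the members, at 0.0696, followed by *Slc5a7* at 0.101, *Prph* at 0.130 and *Slc18a3* at 0.131. *Ache* (0.204), *Calcb* (0.278) and *Isl1* (0.393) were farther. The median was 0.244 over 4736 loci with a single name and enough fragments and spread. *Calcb* and *Isl1* had too few fragments for that set and *Ache* too little spread, so their distances cannot be read against its median. The spread of *Chat* itself was 0.215 (SD over the 6 libraries). Of those loci, 5 were nearer to *Chat* than *Calca* was, and 235 were nearer than *Slc18a3*, its neighbour in the genome. The 5 nearest were *BC016495* at 0.0519, *F5* (coagulation factor V) at 0.0535, *Hist1h1c* (a linker histone) at 0.0643, *Sgk2* (a serine/threonine kinase) at 0.0655 and *Samhd1* (a nucleotide hydrolase) at 0.0665. The points share 6 libraries and their scaling, and a distance over 6 points says little about any 1 gene.

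Ratios of FPKM within a library set the members beside each other. *Slc18a3* had 1.72 to 2.17 times the FPKM of *Chat*, with 1.72 to 2.17 in the controls and 1.79 to 2.05 in the libraries labelled cKO. *Slc5a7* had 2.04 to 2.46 times the FPKM of *Chat*. *Ache* had 12.1 times the FPKM of *Chat* in cKO replicate 1 and 18.0 times in cKO replicate 2, the extremes of the 6 libraries. The ratio of *Calca* to *Calcb* was 3.53 in cKO replicate 1, 5.78 in cKO replicate 2 and 7.11 in cKO replicate 3, against 3.57 to 5.73 in the controls.

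Other genes of acetylcholine handling were not called. Of 12 tested genes 0 passed edgeR's test and 0 had an unadjusted p under 0.05, with 8 above 0, 4 below 0 and a median log2 fold change of 0.02. *Slc10a4*, an orphan carrier of cholinergic synaptic vesicles, had 159, 146 and 145 fragments under the control label and 176, 175 and 168 under the cKO label, with no overlap on the CPM scale and a log2 fold change of 0.21 (adjusted p = 0.776 from edgeR). *Colq*, the collagen tail that anchors acetylcholinesterase, had a log2 fold change of 0.35 (adjusted p = 0.882 from edgeR) and *Chkb*, a choline kinase, one of -0.16 (adjusted p = 0.855 from edgeR). *Acly*, which makes acetyl-CoA, and *Slc44a1*, a choline carrier, were at 0.01 and 0.02 on the log2 scale.

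Genes of motor neuron identity gave 0 calls of 23 tested, with 16 above 0, 7 below 0 and a median log2 fold change of 0.02. At an unadjusted p under 0.05, 2 were lower and 1 was higher. *Pvalb*, a calcium buffer that many brainstem and cerebellar neurons also make, had 1141, 989 and 1096 fragments under the control label and 905, 921 and 892 under the cKO label (log2 fold change -0.25, adjusted p = 0.120 from edgeR). *Nkx2-2*, a homeodomain factor that oligodendrocyte precursors make as well, had a log2 fold change of -0.34 (adjusted p = 0.631 from edgeR), and *Ret*, the receptor tyrosine kinase for the GDNF family, one of 0.14 (adjusted p = 0.702 from edgeR). *Agrn*, *Nrg1* and *Esrrg*, the genes of the list with the most CPM, a scale that does not divide by length, were at 0.04, 0.10 and 0.02 on the log2 scale.

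Cytoskeletal genes of long axons, set beside *Prph*, gave 0 calls of 10, with 0 at an unadjusted p under 0.05 and a median log2 fold change of 0.04. *Nefl* and *Nefh*, neurofilament subunits, and *Kif5a*, a kinesin of axonal transport, were at 0.05, 0.04 and 0.04. Receptors and relatives of the calcitonin family gave 0 calls of 7, with 1 lower at an unadjusted p under 0.05 and a median of 0.04. *Calcrl* and *Ramp1*, which together form the CGRP receptor, were at 0.07 and 0.05, and *Ramp3*, a partner of the adrenomedullin receptor, had 24, 22 and 16 fragments under the control label and 14, 10 and 13 under the cKO label (log2 fold change -0.74, adjusted p = 0.655 from edgeR).

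Markers of other cells that could supply these transcripts were read in the same libraries. Fewer cells of a type and less RNA in each cell cannot be told apart in such bulk tissue. Of 11 sensory ganglion genes found, 5 were tested and 0 called, with 0 at an unadjusted p under 0.05 (median log2 fold change -0.06), and their summed level was 88.9 to 90.7 CPM in the controls and 85.0 to 88.0 CPM in the libraries labelled cKO, most of it *Avil*. Myelin genes of nerve roots gave 0 calls of 6 tested (median log2 fold change -0.0040), with 1 lower at an unadjusted p under 0.05. Markers of other cholinergic groups, among them the basal forebrain and the medial habenula, differed widely in level. *Lhx8*, which was not tested, had 0 to 1 fragments in each library. *Nos1*, *Pou4f1* and *Ngfr* of the same list had 1272 to 1495, 96 to 137 and 37 to 71. The list gave 0 calls of 7 tested (median 0.02), and 1 was lower at an unadjusted p under 0.05. This was *Zic4*, which cells of the cerebellum and its precursors make as well (log2 fold change -0.47, adjusted p = 0.122 from edgeR). Genes of the parabrachial region, whose neurons also make CGRP, gave 0 calls of 7 and 0 at an unadjusted p under 0.05 (median 0.09), with *Tac1* at 0.09 and *Adcyap1* at 0.10.

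Markers of the regions at either end of the brainstem also differed between libraries. *Slc6a3*, the dopamine transporter of midbrain neurons, had 166, 132 and 368 fragments under the control label and 145, 483 and 110 under the cKO label, and *Th* had 129, 168 and 257 fragments under the control label and 168, 292 and 122 under the cKO label. Both were thus highest in cKO replicate 2, the lowest library for 5 members. The midbrain list gave 0 calls of 4 and 0 at an unadjusted p under 0.05, with a median log2 fold change of 0.11. Brainstem neuron genes gave 0 calls of 8 and 2 higher at an unadjusted p under 0.05, all 8 above 0 with a median of 0.13, and their summed level was 281 to 338 CPM in the controls and 291 to 367 CPM in the libraries labelled cKO. *Dbh*, which makes noradrenaline, had 94, 120 and 87 fragments under the control label and 141, 143 and 129 under the cKO label (log2 fold change 0.46, adjusted p = 0.297 from edgeR). At the caudal end, 8 *Hox* genes of posterior groups had a median log2 fold change of -0.25 and 0 calls, with 1 lower at an unadjusted p under 0.05, and their mean level in log2 CPM was 2.02, 1.78 and 1.45 in the controls and 1.88, 1.04 and 1.13 in the libraries labelled cKO. DESeq2 and limma on log2(FPKM + 1) gave 0 calls for each of the lists set beside the members so far. That limma fit called 0 of all 19282 loci it tested, so that its 0 says nothing about a list. With the mean of these *Hox* genes as a covariate, the log2 fold changes were 0.27 for *Chat*, 0.28 for *Slc18a3*, 0.27 for *Slc5a7*, 0.33 for *Calca*, 0.44 for *Calcb*, 0.21 for *Prph*, 0.07 for *Ache* and 0.80 for *Isl1*, and edgeR called no member. The part of the midbrain and brainstem neuron genes in the values of the members was not tested.

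Most granule neuron and Purkinje cell genes were lower under the cKO label. By in situ hybridization in wild-type mice at P21, the authors detected *Calb1*, *Itpr1* and *Grin2c* of these lists in brainstem nuclei as well. The tissue or cells that these transcripts came from were not tested. Of 6 granule neuron genes 5 were called lower (median log2 fold change -1.79), as were 5 of 6 Purkinje cell genes (median -1.32) by edgeR. DESeq2 called 5 in each list, and limma on log2(FPKM + 1), which called 0 of all loci it tested, called 0. The summed level of the granule neuron list was 372 to 655 CPM in the controls and 180 to 215 CPM in the libraries labelled cKO. With the mean of both lists as a covariate, 6 of the 8 log2 fold changes were below 0, at -0.41 for *Chat*, -0.31 for *Slc5a7*, -0.45 for *Isl1*, -0.42 for *Prph*, -0.25 for *Calca* and -0.58 for *Calcb*. Those of *Ache* and *Slc18a3* remained above 0, and no member was called by edgeR. Since that mean separates the genotypes, it and the genotype cannot be told apart.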

How the data were processed

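RNA was measured in 6 libraries of P21 mouse brainstem, 3 for each genotype. Per the labels, the authors prepared stranded total RNA libraries after depletion of ribosomal RNA, and the processing notes name CASAVA 1.6, TopHat2 2.0.9, Cufflinks 2.2.0 and Cuffdiff on mm10. The deposited table gives fragments as whole counts for each locus and library, and the FPKM that the authors computed with Cuffdiff, scaled between libraries. Its 2 further fragment columns, scaled by Cuffdiff, were not used. Exon positions came from the deposited assembly. The genome positions given are those of the same build.

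Counts were scaled by TMM, filtered with filterByExpr (21854 loci left), and tested in R 4.3.3 with the quasi-likelihood test of edgeR 4.0.16. A locus was called at a Benjamini-Hochberg adjusted p under 0.05. Intervals use the standard error and t distribution of that test. log2 CPM had a prior count of 2. No set test was run. The main edgeR fit, DESeq2 and limma (on CPM) were run on counts simulated from the levels and spread that edgeR estimated here. This does not check the edgeR model itself, and the other alternatives were not run on simulated counts. Libraries of 1 genotype differed beyond sampling noise, so none was counted as a duplicate. Alternatives were DESeq2 1.42.0, limma 3.58.1 on log2(FPKM + 1) and log2(FPKM + 0.1) where 3 libraries reached an FPKM of 1, other scalings and filters, libraries left out, a replicate block, and 2 covariates. Sequences were taken from RefSeq and GENCODE with Python 3.11.15, and aligned with biopython 1.88.

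The members, the 14 lists and the alternatives were chosen with earlier results of these data known. Genes named are the members, *Hoxa5*, the genes of each list with the smallest p or the highest level, and the 5 loci with a single name nearest to *Chat* among those with at least 50 fragments on average and an SD of at least 0.5 times that of *Chat*. *Emx1*, *Emx2*, *Tbr1*, *Scn10a*, *Mrgprd*, *Trpv1*, *Prdm12*, *Lhx8*, *Srrt* and *Gm2990* were added after their values or positions were seen. Some genes that this rule takes in are not reported here.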

Additional observations from a re-analysis of the deposited data

How the results depend on the processing

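No member was called under any alternative. The count of all loci called was 116, and it was 0 with limma on log2(FPKM + 1), 1 with limma on log2(FPKM + 0.1), 221 with no filter on low counts, 76 with at least 50 fragments in 3 libraries, 73 with the posterior *Hox* mean as a covariate and 0 with the granule and Purkinje mean as a covariate. With each library left out in turn it was 44 (without control replicate 1) to 126, and 65 without cKO replicate 3. In those fits the spread was pooled over both genotypes, 1 of which had 2 libraries.

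Fold changes that turned sign are these, on the log2 scale. With limma on log2(FPKM + 0.1) *Calcb* was at -0.028. Leaving out each library in turn gave -0.0397 to 0.28 for *Chat*, -0.0022 to 0.26 for *Slc5a7* and -0.47 to 0.31 for *Calcb*. Without control replicate 3 and cKO replicate 1, *Chat* was at -0.0258, *Slc5a7* at -0.0714, *Calca* at -0.041 and *Calcb* at -0.37. With the granule and Purkinje mean as a covariate, *Chat* was at -0.41, *Slc5a7* at -0.31, *Isl1* at -0.45, *Prph* at -0.42, *Calca* at -0.25 and *Calcb* at -0.58. That mean separates the genotypes and cannot be told apart from them. The causes of these changes of sign were not tested. *Slc18a3* and *Ache* stayed above 0 under all alternatives in which they were tested.

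The replicate numbers did not pair the libraries: deviations of same-numbered libraries from the group means correlated at 0.03, -0.08 and 0.05. With the replicate number as a block 130 loci and 0 members were called. Depth limits *Isl1*, *Calcb* and *Mnx1* most, with 103, 125 and 12 fragments in all. With 3 pools for each genotype, the smallest p of an exact permutation test is 0.1.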
